A study of Mus musculus with 51 samples.

Results

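The complement genes C1qa, C1qb, C1qc, C3, C3ar1, C5ar1, C4b and Cfb were followed in whole mouse lung, as the probe sets that the array's annotation gives to these 8 symbols. Of the 8 genes, 7 had a probe set, 1 each, among the 22206 probe sets of the array. C3 was named for no probe set in the annotation, whether alone or with other symbols, and was not analysed here. The study asked how the lungs of mice made sensitive to methylene diphenyl diisocyanate (MDI, a building block of polyurethane) through the skin respond to MDI in the airways, and whether crofelemer, an inhibitor of chloride channels, alters that response. All mice were males aged 6 to 8 weeks whose shaved backs had been exposed 2 times to 1% MDI in acetone, the controls included. Airway exposures, given through the nose under isoflurane on days 15 and 16 and again on days 19 and 20, held MDI reacted together with glutathione, or a control solution in which MDI and glutathione had been reacted apart. The B-cell deficient mice carry a targeted allele of Ighm on a C57BL/6 background. Lavaged, perfused lungs were taken 48 hours after the last exposure. The 49 arrays with a clear label came from BALB/c mice (3 control, 3 MDI), C57BL/6 mice (6 control, 13 MDI), C57BL/6 mice given crofelemer at 4 mg/kg through the nose 4 hours before each exposure (5 control, 3 MDI) and B-cell deficient mice of the strain B6.129S2-Ighmtm1Cgn/J (9 control, 7 MDI). For 4 of the 5 crofelemer controls the label of the airway exposure reads crofelemer only, while their source label names control reaction products as well.

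Complement is a cascade of plasma proteins that marks microbes, immune complexes and dying cells. C1q, built from the products of C1qa, C1qb and C1qc, is the recognition molecule of the classical pathway, and unlike most complement proteins, which the liver secretes, it is made mainly by macrophages and dendritic cells. C4b encodes complement component C4, which supplies part of the classical and lectin pathway convertase, and Cfb encodes factor B, the protease of the alternative pathway convertase. Cleavage of C3 and C5 releases the anaphylatoxins C3a and C5a, whose receptors C3ar1 and C5ar1 lie on myeloid cells and are studied in allergic airway disease.

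The values are log2 signals as deposited, and all differences below are differences of log2 values on that scale. The mean signal of an array was 7.37 to 7.40 for BALB/c mice and 8.02 to 8.07 for B-cell deficient mice. For C57BL/6 mice it was 7.48 to 7.51 without crofelemer and 7.43 to 7.48 with it. The 4 sets may therefore have been normalized apart, so levels are compared within a set, and each comparison across sets is read with this limit. Lung identity was clear, with Sftpc, the surfactant protein C gene of alveolar type 2 cells, at group means of 19.19 to 19.57. Cd79a, a B cell receptor subunit, averaged 5.26 in B-cell deficient controls and 11.08 in C57BL/6 controls. Of the B-cell deficient controls, 4 (controls 1, 2, 5 and 6) had a narrower spread of values over all probe sets (SD 2.85 to 2.96) than the other arrays. The record numbers fall in 3 stretches, here called record blocks and used as a possible batch. All B-cell deficient controls fell in block 2, while 4 of the 7 MDI arrays of that genotype fell in block 1. The labels do not say that each array is a separate animal, so the p-values measure only the spread between these arrays.

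MDI raised 4 of the 7 measured genes in BALB/c mice, namely C1qa, C1qb, C1qc and C3ar1, where 0.302% of all probe sets were called at an adjusted p under 0.05 and 0.261% were called higher (limma, Benjamini-Hochberg adjustment over all probe sets). C57BL/6 mice had 5 that rose (these 4 and Cfb) and 1, C5ar1, that fell, against 14.5% of probe sets called, 5.30% higher and 9.23% lower. B-cell deficient mice had 6 that rose, C4b now among them, and again C5ar1 fell, against 36.9% of probe sets called, 16.2% higher and 20.7% lower. With crofelemer, 0 of the 7 were called by limma, where 0.0540% of probe sets were called and where Cfb alone had an unadjusted p under 0.05 (p = 0.0229). Their median difference was 1.99 in BALB/c mice, where that of all probe sets was -0.01, and 1.30 against 0.01 in C57BL/6 mice. It was 2.29 against -0.06 under B-cell deficiency and 0.23 against -0.00 under crofelemer. The members were chosen with earlier results of these data known. Their counts and medians beside all probe sets, here and below, are therefore descriptions and no independent test. In whole lung, a change in the number of cells that make an mRNA and a change in its amount per cell cannot be told apart.

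**Figure D1:**
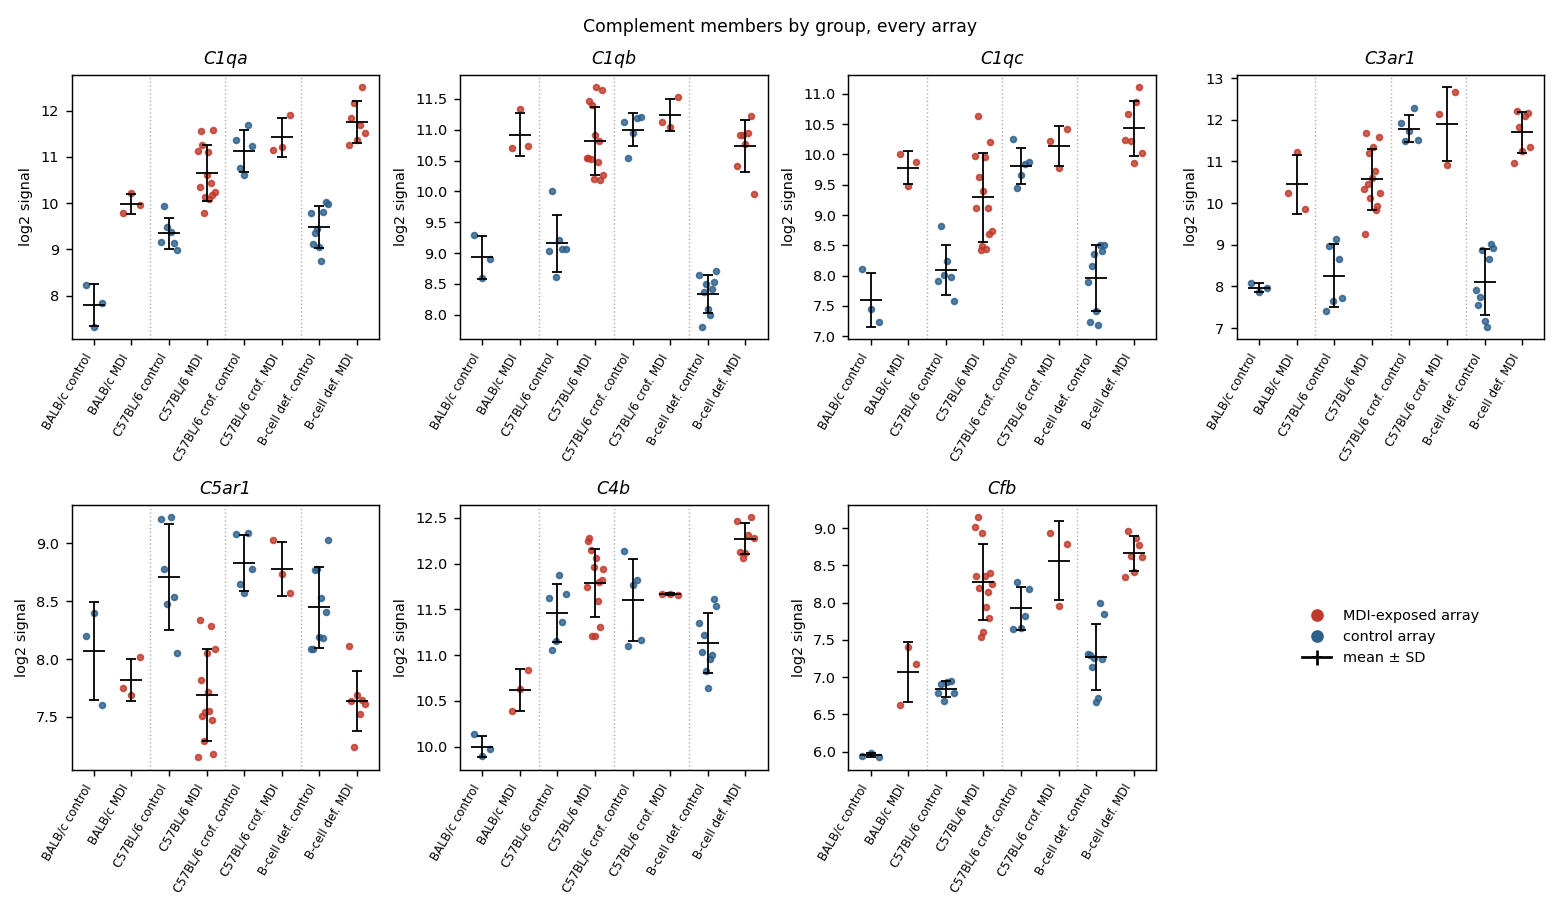
Log2 signal of the 7 measured complement genes (vertical axis) on each of the 49 arrays, by group (horizontal axis), with blue points for control and red points for MDI arrays and black bars for the mean ± SD. Dotted lines separate the 4 sets of arrays; C1q genes and C3ar1 were higher on MDI than on control arrays in the first, second and last set, while the crofelemer controls already lay near the MDI arrays, and C5ar1 was lower on MDI arrays of C57BL/6 and B-cell deficient mice.

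The 3 C1q genes lie side by side on chromosome 4 of the mouse assembly GRCm38.p6, with C1qb at chr4:136880126-136886200, C1qc at chr4:136889801-136892936 and C1qa at chr4:136895916-136898844. No other protein-coding gene is annotated in the 18719 bases that they span. C3ar1 lies at chr6:122847140-122856157. The 250 bases before the start of a transcript are shown for C1qb, C1qc and C3ar1, the members that rose together and had a sequence in the RefSeq table of this build, from chr4:136886201-136886450, chr4:136892915-136893164 and chr6:122856158-122856407. The C1qc window reaches a little into the annotated gene, whose outer end is at 136892936, so its distances count from a transcript start inside the gene. All 3 are written 5′ to 3′ on the minus strand, with matches to the searched motifs in capitals.
C1qb: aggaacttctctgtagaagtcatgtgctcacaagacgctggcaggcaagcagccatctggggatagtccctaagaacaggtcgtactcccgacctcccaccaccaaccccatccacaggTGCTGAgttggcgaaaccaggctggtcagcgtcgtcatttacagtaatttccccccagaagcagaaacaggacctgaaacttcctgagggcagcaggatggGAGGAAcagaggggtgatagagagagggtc
C1qc: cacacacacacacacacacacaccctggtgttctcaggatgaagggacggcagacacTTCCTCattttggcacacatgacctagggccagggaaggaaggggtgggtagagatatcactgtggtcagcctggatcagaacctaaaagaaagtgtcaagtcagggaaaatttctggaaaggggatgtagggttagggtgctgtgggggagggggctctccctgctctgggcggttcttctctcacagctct
C3ar1: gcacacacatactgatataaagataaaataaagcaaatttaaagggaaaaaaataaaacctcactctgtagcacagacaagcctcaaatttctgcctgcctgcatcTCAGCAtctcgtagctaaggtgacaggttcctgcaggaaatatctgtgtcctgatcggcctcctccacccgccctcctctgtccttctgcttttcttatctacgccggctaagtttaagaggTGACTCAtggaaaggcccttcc

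Both strands were searched for 4 motifs of factors known in myeloid gene control. GAGGAA, a core bound by PU.1, occurred in C1qb (30 bases before the start) and, on the other strand as TTCCTC, in C1qc (193 bases before it), and occurs in 23.3% of the 32851 promoter windows of this length. TGCTGA, a core bound by MAF factors, occurred in C1qb (131 bases before) and, on the other strand, in C3ar1 (144 bases before), and occurs in 16.1% of windows. TGANTCA, the AP-1 site, occurred in C3ar1 (22 bases before) and occurs in 6.75% of windows. The STAT-type motif TTCNNNGAA, found in 7.02% of windows, had no match in these 3 windows. Of the 7 measured genes, 4 had a window in the table. That of C5ar1 lies largely inside the annotated gene and is not shown. It also held TGCTGA, 17 bases before the transcript start used. A match is a string of letters here, and binding was not measured.

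C1qa, the gene of the C1q A chain, was low on all BALB/c control arrays, at 8.24, 7.32 and 7.84, and stood at 9.78, 10.21 and 9.96 on the MDI arrays. The groups did not overlap, and the difference was 2.18 ± 0.37 (SE; n = 3 and 3; limma, adjusted p = 3.28e-04). The 6 C57BL/6 controls ran from 8.98 (median 9.28) to 9.94 and the 13 MDI arrays from 9.79 (median 10.44) to 11.59. Here 12 of the 13 MDI arrays lay above every control, and the difference was 1.30 ± 0.22 (limma, adjusted p = 4.49e-05). For B-cell deficiency, the 9 controls ran from 8.75 (median 9.44) to 10.03 and the 7 MDI arrays from 11.26 (median 11.68) to 12.52. These groups were clear of each other by 1.23, and the difference was 2.29 ± 0.23 (limma, adjusted p = 5.39e-11).

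C1qb, the gene of the B chain, was separated in all 3 of these settings. Its BALB/c control values were 9.29, 8.60 and 8.90 and its BALB/c MDI values 10.71, 11.33 and 10.73, a difference of 1.99 ± 0.33 (limma, adjusted p = 2.50e-04). C57BL/6 controls ran from 8.61 (median 9.06) to 10.00 and the MDI arrays from 10.19 (median 10.55) to 11.70. Control 2, at 10.00, was alone close to the MDI arrays, and the difference was 1.66 ± 0.20 (limma, adjusted p = 3.75e-08). B-cell deficient controls ran from 7.80 (median 8.42) to 8.71 and the MDI arrays from 9.96 (median 10.92) to 11.23. The gap was 1.25 and the difference 2.40 ± 0.20 (limma, adjusted p = 5.00e-13).

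C1qc, the gene of the C chain, overlapped most of the 3 in C57BL/6 mice. BALB/c controls were at 8.11, 7.45 and 7.24 and BALB/c MDI arrays at 10.00, 9.48 and 9.87, a difference of 2.18 ± 0.42 (limma, adjusted p = 0.00271). C57BL/6 controls of C1qc ran from 7.59 (median 8.00) to 8.82, and the MDI arrays from 8.43 (median 9.12) to 10.63. Only 8 of 13 MDI arrays lay above every control, since MDI 5, 6, 9, 11 and 14 stood between 8.43 and 8.73. The difference was 1.20 ± 0.25 (limma, adjusted p = 6.42e-04). The B-cell deficient controls ran from 7.19 (median 8.16) to 8.51 and the MDI arrays from 9.86 (median 10.24) to 11.12. The groups stood apart by 1.35, with a difference of 2.46 ± 0.26 (limma, adjusted p = 2.02e-10). The BALB/c call of C1qc was lost without control 3 (adjusted p = 0.0561), and the number of called members was then 2.

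C4b, the C4 gene, rose least of the 6 genes that went up in B-cell deficient mice and did not pass in BALB/c or C57BL/6 mice. BALB/c controls stood at 10.14, 9.90 and 9.97 and MDI arrays at 10.39, 10.63 and 10.84, with no overlap, and the difference of 0.62 ± 0.25 did not pass (limma, adjusted p = 0.631). The C57BL/6 groups overlapped widely, with controls from 11.05 (median 11.49) to 11.88 and MDI arrays from 11.21 (median 11.82) to 12.28. That difference was 0.34 ± 0.15 (limma, adjusted p = 0.135). In B-cell deficient mice, with controls from 10.64 (median 11.03) to 11.61 and MDI arrays from 12.06 (median 12.28) to 12.51, C4b rose by 1.14 ± 0.16 (limma, adjusted p = 1.55e-07). C4b (chr17:34728139-34743902) has a near-identical neighbour, C4a (chr17:34809092-34823460), and their signals may not be fully separate on the array. C4a rose in B-cell deficient mice by 1.91 ± 0.19 (limma, adjusted p = 7.74e-11) and showed 0.63 ± 0.31 in BALB/c and 0.40 ± 0.19 in C57BL/6 mice, neither called.

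Cfb (chr17:34856374-34862514), on the same stretch of chromosome 17, gave close control values in BALB/c and C57BL/6 mice. BALB/c controls stood at 5.94, 5.98 and 5.93 and MDI arrays at 6.62, 7.40 and 7.18. The groups were separate, but the difference of 1.12 ± 0.31 did not pass with the spread shared over all groups (limma, adjusted p = 0.135). It passed when the BALB/c arrays were fitted alone (adjusted p = 0.0352) or with array weights (adjusted p = 0.0140). The C57BL/6 controls kept within 6.68 (median 6.84) and 6.95, and the MDI arrays ran from 7.54 (median 8.25) to 9.15. All 13 MDI arrays lay above the 6 controls, by at least 0.59, and the difference was 1.45 ± 0.19 (limma, adjusted p = 1.86e-07). For B-cell deficiency, controls from 6.66 (median 7.25) to 7.99 faced MDI arrays from 8.34 (median 8.63) to 8.96, with a difference of 1.38 ± 0.19 (limma, adjusted p = 1.57e-07).

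C3ar1, the receptor for C3a, had the largest difference of the 7 genes in each of the 3 settings. In BALB/c mice the controls stood at 8.08, 7.86 and 7.96 and the MDI arrays at 10.25, 11.24 and 9.87. The difference was 2.49 ± 0.51 (limma, adjusted p = 0.00735). This call did not survive the loss of control 2 (adjusted p = 0.0603), control 3 (adjusted p = 0.0544) or MDI 2 (adjusted p = 0.209). The C57BL/6 controls fell into a lower part (controls 1, 3 and 6, at 7.41 to 7.72) and a higher part (controls 2, 4 and 5, at 8.66 to 9.14). The MDI arrays ran from 9.26 (median 10.46) to 11.68, all above the controls, with a difference of 2.31 ± 0.31 (limma, adjusted p = 4.41e-07). Controls of the B-cell deficient mice ran from 7.02 (median 7.92) to 9.02 and the MDI arrays from 10.96 (median 11.84) to 12.22. The gap of 1.94 was the widest for any member after MDI, and the difference was 3.60 ± 0.31 (limma, adjusted p = 1.14e-12).

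C5ar1 (chr7:16246743-16259540), the receptor for C5a, did not follow C3ar1. In BALB/c mice the controls, at 8.20, 8.40 and 7.60, enclosed the MDI arrays, at 7.75, 7.69 and 8.02, and the difference was -0.25 ± 0.28 (limma, adjusted p = 0.999). C57BL/6 controls ranged from 8.05 (median 8.66) to 9.23 and the MDI arrays from 7.15 (median 7.55) to 8.34. C5ar1 fell by 1.02 ± 0.17 (limma, adjusted p = 2.63e-05), and 9 of 13 MDI arrays lay below every control. With B-cell deficiency, controls from 8.09 (median 8.41) to 9.03 faced MDI arrays from 7.24 (median 7.64) to 8.11. C5ar1 fell by 0.81 ± 0.17 (limma, adjusted p = 2.37e-04), with 6 of 7 MDI arrays below every control and MDI 1, at 8.11, just inside their range. C5ar2, the second C5a receptor, fell in C57BL/6 mice by 0.66 ± 0.17 (limma, adjusted p = 0.00426) and differed by -0.28 ± 0.17 in B-cell deficient mice, which did not pass.

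Over these settings, 6 of the 7 genes had every MDI array above every control in BALB/c mice, where 7.48% of all probe sets did so. For C57BL/6 3 did (C1qb, C3ar1 and Cfb), against 0.459% of probe sets, and in B-cell deficient mice 6 did, against 4.67%. Set against the same controls, the 3 B-cell deficient MDI arrays of record block 2, the block of those controls, gave like values, with differences of 2.43 for C1qa, 2.37 for C1qb, 2.70 for C1qc, 3.78 for C3ar1, 1.24 for C4b, 1.48 for Cfb and -0.86 for C5ar1, and all 7 genes were called. Without the 4 controls of narrow spread the 7 genes were called as well, with 2.04 for C1qa, 2.23 for C1qb, 2.04 for C1qc and 3.05 for C3ar1. C57BL/6 MDI 14, whose source label names control products, lay within the range of the other MDI arrays for each of the 7 genes.

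**Figure D2:**
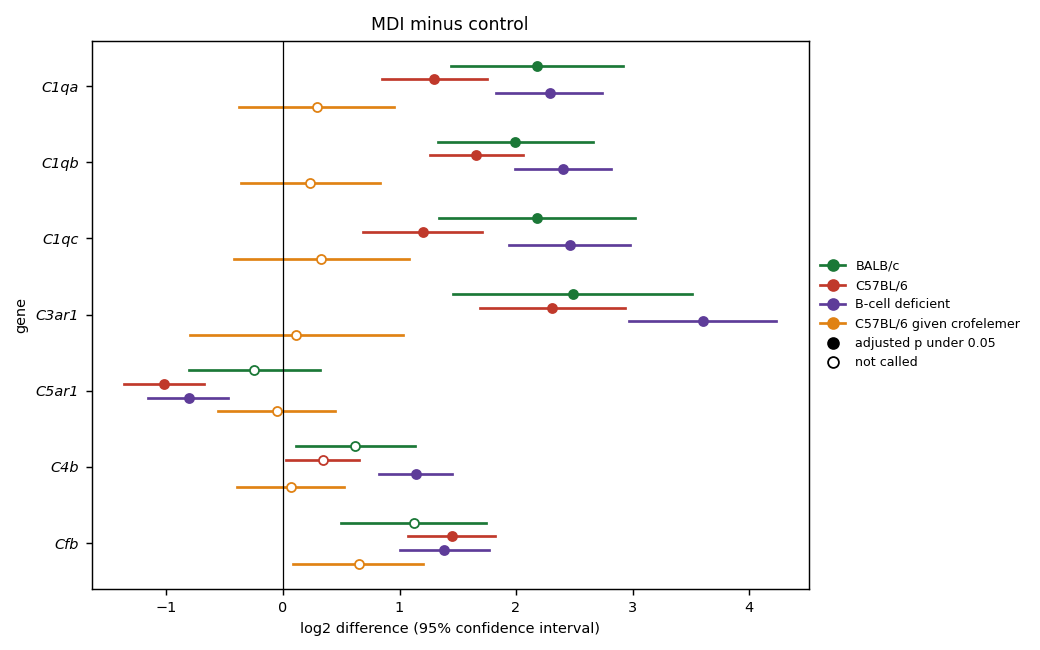
MDI minus control in log2 units (horizontal axis) for the 7 genes (vertical axis), with 95% confidence intervals, in the 4 kinds of mice; filled points passed the adjusted p. The crofelemer-treated mice have 7 open points, C3ar1 has the largest differences of the other sets, and C5ar1 is the gene to the left of 0.

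Under crofelemer, the values of the MDI and control arrays ran together. C1qa stood at 11.37, 10.75, 10.60, 11.69 and 11.24 on the controls and at 11.14, 11.21 and 11.90 on the MDI arrays, a difference of 0.29 with a 95% interval of -0.38 to 0.95. C1qb stood at 11.13, 10.55, 10.94, 11.19 and 11.20 on the controls and at 11.13, 11.05 and 11.53 after MDI (0.23, interval -0.36 to 0.83). C1qc stood at 10.25, 9.44, 9.66, 9.84 and 9.87 and at 10.23, 9.77 and 10.42 (0.33, interval -0.42 to 1.08). In each C1q gene only MDI 3 was above every control.

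C3ar1 stood at 11.92, 11.49, 11.74, 12.29 and 11.52 on the crofelemer controls and at 12.14, 10.92 and 12.66 on the MDI arrays, where MDI 2 was the lowest of all and MDI 3 the highest. Its difference was 0.11, with an interval of -0.80 to 1.03. Cfb stood at 7.65, 8.28, 7.66, 7.82 and 8.18 and at 8.94, 7.96 and 8.79, so MDI 1 and 3 lay above the controls and MDI 2 among them. The Cfb difference of 0.65 ± 0.27 was the largest of the 7 genes in these mice and did not pass (limma, adjusted p = 0.512). C4b (0.07, interval -0.39 to 0.52) and C5ar1 (-0.05, interval -0.56 to 0.45) stood within their control ranges on all 3 MDI arrays. None of the 7 genes was free of overlap here, where 2.96% of probe sets were. The intervals leave room for changes of up to about 1 log2 unit in the C1q genes and C3ar1, so the design with 5 and 3 arrays does not show that there was no response.

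Crofelemer controls were compared with C57BL/6 controls without it, across 2 sets of arrays. C1qa was higher by 1.78 ± 0.27, C1qb by 1.84 ± 0.24, C1qc by 1.72 ± 0.31, C3ar1 by 3.54 ± 0.38 and Cfb by 1.08 ± 0.23 (limma, adjusted p between 6.32e-11 for C3ar1 and 1.26e-04 for Cfb). These 5 of 7 genes stand beside 39.0% of all probe sets called and 17.6% called higher in the same comparison. All 5 were also free of overlap, which held for 7.60% of probe sets in the direction of higher. The 5 crofelemer controls had C3ar1 between 11.49 and 12.29, and the 6 controls without it between 7.41 and 9.14. C5ar1 (0.12 ± 0.21) and C4b (0.14 ± 0.19) did not pass. Within record block 1, with 4 arrays in each group, the same number of members was called.

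Much else moved between these sets, where 39.0% of all probe sets were called, with 17.6% called higher and the rest lower. The 4 measured B cell markers were all lower in the crofelemer controls, at a median of -2.28, with a mean level over the list of 6.64 to 6.91 per array against 8.20 to 9.18. Of 4 measured fibroblast markers, 3 were higher and Dcn was lower, and Col1a1 was higher by 2.81 ± 0.30. Of 7 neutrophil markers 5 were lower, at a median of -1.98. Of the 10 measured markers of interstitial macrophages and monocytes, 3 were higher and 2 lower, at a median of -0.08, with list means of 9.62 to 9.98 against 9.44 to 10.24. Of 7 alveolar macrophage markers 3 were lower and 0 higher, at a median of -1.02, with list means of 8.93 to 9.41 against 9.61 to 11.34. All 4 endothelial markers were lower, at a median of -1.10, as were 8 of 9 interferon-stimulated genes, at a median of -1.15. Crofelemer and the set of arrays cannot be told apart, and the part of these shifts in the result was not tested.

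Among MDI arrays, crofelemer went with higher C1qa (0.77 ± 0.29, adjusted p = 0.0348), C1qc (0.85 ± 0.33, adjusted p = 0.0392), C3ar1 (1.34 ± 0.40, adjusted p = 0.00720) and C5ar1 (1.09 ± 0.22, adjusted p = 8.49e-05), all by limma. That is 4 of 7 genes, where 32.6% of probe sets were called and 15.0% were called higher. C5ar1 was the single member free of overlap, with the 3 crofelemer arrays at 9.03, 8.74 and 8.57 and the 13 others no higher than 8.34, beside 4.98% of probe sets. The arrays of equal number deviated together in this comparison, and with the replicate number as a block, on 3 pairs, 1 gene was called, C3ar1. C1qa then stood at 0.41 (adjusted p = 0.383), C1qc at 0.24 (adjusted p = 0.668) and C5ar1 at 1.01 (adjusted p = 0.0641). Without crofelemer MDI 3 the number called was also 1, C5ar1, with C3ar1 at 0.96 (adjusted p = 0.125). The number was 2 without crofelemer MDI 1 or without C57BL/6 MDI 5, and 2 within record block 1. C1qc alone was lost without C57BL/6 MDI 6, 9, 11 or 14, and C1qa without crofelemer MDI 2 (limma, adjusted p = 0.0505).

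The MDI effect was then compared between sets. A constant offset of a set drops out of such a difference, while a change in the spread of its values does not. BALB/c and C57BL/6 mice did not differ past the threshold in any of the 7 genes, where 0.0270% of probe sets were called. The widest differences were 0.99 for C1qc (interval 0.01 to 1.97; limma, adjusted p = 0.628), 0.89 for C1qa (interval 0.02 to 1.75; limma, adjusted p = 0.616) and 0.78 for C5ar1 (interval 0.12 to 1.44; limma, adjusted p = 0.530). Each of these 3 had an unadjusted p under 0.05.

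B-cell deficient mice had a larger MDI effect than C57BL/6 mice in 4 of the 7 genes, against 20.3% of probe sets called and 9.27% called higher. The excess was 0.99 ± 0.32 for C1qa (limma, adjusted p = 0.0231), 1.26 ± 0.36 for C1qc (adjusted p = 0.0109), 1.29 ± 0.44 for C3ar1 (adjusted p = 0.0318) and 0.80 ± 0.22 for C4b (adjusted p = 0.00831). C1qb, with 0.74 ± 0.29, missed the threshold (adjusted p = 0.0575), and C5ar1 (0.21, interval -0.28 to 0.70) and Cfb (-0.06, interval -0.60 to 0.47) did not pass. None of the 4 was called without the 4 B-cell deficient controls of narrow spread, at 0.74 for C1qa (adjusted p = 0.206), 0.84 for C1qc (adjusted p = 0.189), 0.74 for C3ar1 (adjusted p = 0.360) and 0.69 for C4b (adjusted p = 0.0856). Those controls held the lowest C1qc and C3ar1 values of their group, at 7.19 to 7.89 and 7.02 to 7.92, apart from control 3 with 7.74 for C3ar1. Without C57BL/6 control 2 the number called was 2, with C1qa and C3ar1 lost. C3ar1 alone was also lost without C57BL/6 control 4 or 5, B-cell deficient control 2, 5 or 6, or B-cell deficient MDI 2 or 6 (limma, adjusted p from 0.0516 to 0.0769), and with the record block as a term (1.52, adjusted p = 0.0689).

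The MDI effect was smaller with crofelemer than without in C1qb, by -1.43 ± 0.36, and in C3ar1, by -2.20 ± 0.55 (limma, adjusted p = 0.0496 for each), 2 of 7 genes where 0.423% of probe sets were called and 0.243% lower. C1qa (-1.01 ± 0.40, adjusted p = 0.268), C1qc (-0.87 ± 0.45, adjusted p = 0.429), Cfb (-0.80 ± 0.33, adjusted p = 0.300) and C5ar1 (0.97 ± 0.30, adjusted p = 0.146) did not pass by limma. In C1qb and C3ar1 crofelemer went with a difference of 0.42 and 1.34 among MDI arrays and of 1.84 and 3.54 among controls. The 2 calls sat at the threshold, and neither was made with only these groups in the fit (adjusted p = 0.144 and 0.112) or within record block 1 (adjusted p = 0.252 and 0.200). Both were called in 6 of the 27 fits that left out 1 array, and in 16 none was.

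**Figure D3:**
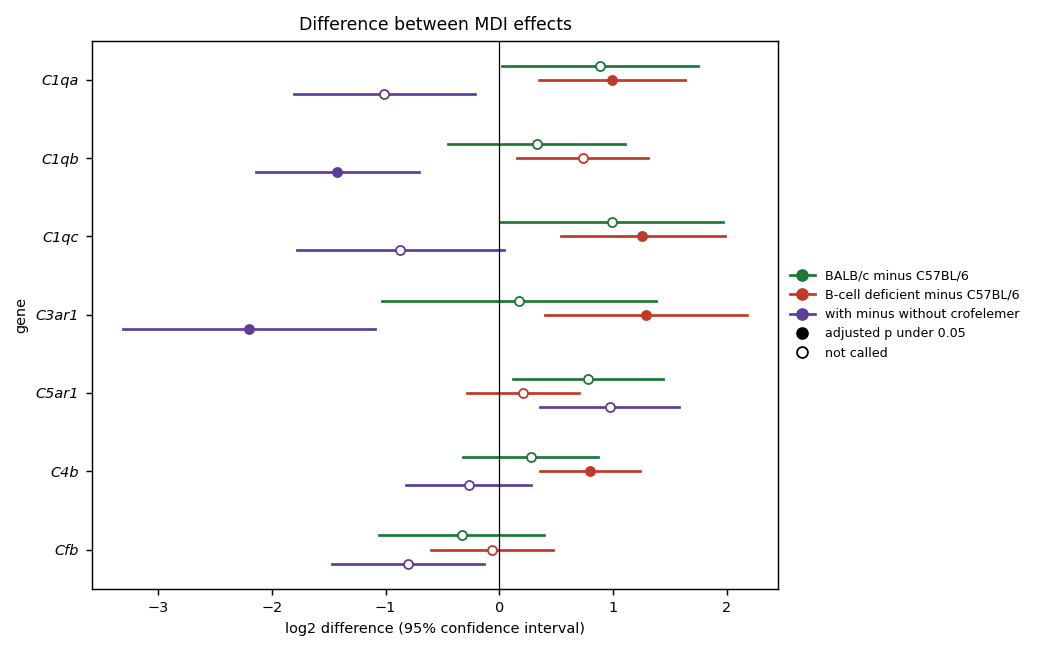
Difference between the MDI effects of 2 sets in log2 units (horizontal axis) for the 7 genes (vertical axis), with 95% confidence intervals; filled points passed the adjusted p. For crofelemer the C1q genes, C3ar1, C4b and Cfb lie below 0 and C5ar1 above it, with C1qb (-1.43) and C3ar1 (-2.20) filled, and for B-cell deficiency C1qa, C1qc, C3ar1 and C4b are filled above 0.

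Among other complement genes, 39 with a probe set were examined, and the share called was near that over all probe sets in each MDI comparison. For BALB/c 0 of 39 were called by limma, against 0.302% of all probe sets. There Cfp, the gene of properdin that stabilises the alternative pathway convertase, differed by 1.32 ± 0.37 (adjusted p = 0.150) and C1s1, a protease of the C1 complex, by 0.66 ± 0.20 (adjusted p = 0.219), both with an unadjusted p under 0.05. C57BL/6 mice had 4 that rose and 2 that fell, together 6 of 39, against 14.5% of all probe sets. Itgax, a subunit of complement receptor 4, rose by 1.33 ± 0.29 (adjusted p = 0.00106), Cfp by 0.95 ± 0.23 (adjusted p = 0.00243), Hc, which encodes C5, by 0.61 ± 0.20 (adjusted p = 0.0363) and Cfi, the protease factor I, by 0.47 ± 0.15 (adjusted p = 0.0293). Vtn, the gene of vitronectin, fell by 0.92 ± 0.14 (adjusted p = 1.04e-05), and C5ar2 fell as given above.

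In B-cell deficient mice 8 of the 39 rose and 5 fell, together 13 of 39, against 36.9% of all probe sets. The receptor subunits Itgam (2.41 ± 0.31), Itgax (2.21 ± 0.30) and Itgb2 (1.47 ± 0.25) rose, as did Cfp (1.74 ± 0.23), Cfi (0.80 ± 0.15), Hc (0.75 ± 0.21), C1s2 (0.44 ± 0.12) and C4a. C7, a component of the membrane attack complex, fell by 0.79 ± 0.17, and Masp2, Colec10, C8g and Vtn fell by 0.63, 0.62, 0.52 and 0.43 (adjusted p from 2.34e-05 for Masp2 to 0.0183 for Vtn, limma). C2, C1ra, C1s1 and Serping1, the C1 inhibitor gene, did not pass in any of the 4 MDI comparisons, with C2 between -0.41 and -0.07 and Serping1 between -0.27 and -0.04. Under crofelemer 0 of 39 were called, with C1ra at 0.53 ± 0.23 (adjusted p = 0.525). The median of the 39 genes was 0.04 in BALB/c mice, 0.07 in C57BL/6 mice, -0.04 under B-cell deficiency and 0.09 under crofelemer, beside the medians over all probe sets given above.

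**Figure D4:**
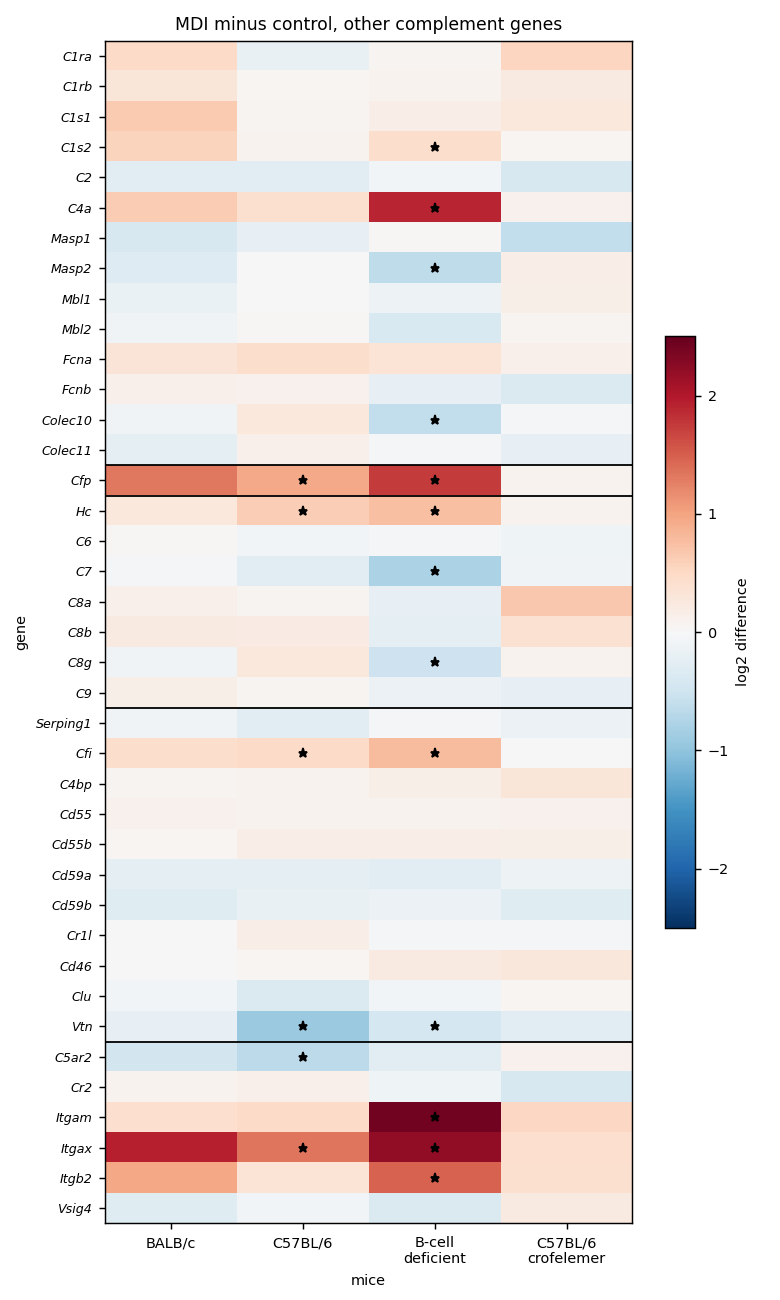
MDI minus control in log2 units (colour, from blue for lower to red for higher, with the scale ending at 2.5 either way) for the 39 measured complement genes outside the member list, in rows by role, and the 4 kinds of mice in columns; stars mark genes with an adjusted p under 0.05. Stars number 0, 6, 13 and 0 from left to right, and the deepest reds are the integrin receptor genes, C4a and Cfp.

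Between crofelemer-treated and untreated controls 6 of these 39 genes were higher and 14 lower. There 39.0% of all probe sets were called, with 17.6% called higher and the rest lower. Among MDI arrays 1 was higher and 14 lower, where 32.6% of all probe sets were called, with 15.0% called higher and the rest lower. The membrane regulators that protect host cells were among the lower ones, with Cd55 at -1.74 ± 0.18 in controls and -1.72 ± 0.19 in MDI arrays, and Cd59a at -2.04 ± 0.27 and -1.91 ± 0.28. Clu, the gene of clusterin, was higher by 1.86 ± 0.20 and 2.27 ± 0.21. C1ra (-0.71), C2 (-0.81) and Serping1 (-0.51) were lower in crofelemer controls, unlike the C1q genes, and all passed (limma, adjusted p from 5.74e-04 to 0.0307). Not all genes of such roles went this way. Of the 14 listed for recognition and initiating proteases, 3 were higher, 4 lower and 7 not called in these controls. As above, these differences lie across 2 sets of arrays.

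Calls among markers of myeloid cells differed between the strains. Of 10 measured markers of interstitial macrophages and monocytes, MDI raised 0 in BALB/c, 3 in C57BL/6 (Ms4a7 by 1.40, Aif1 by 1.31 and Adgre1 by 0.76) and 7 in B-cell deficient mice, and lowered none, where 0.261%, 5.30% and 16.2% of all probe sets were called higher. Csf1r, which marks the macrophage lineage, differed by 0.24 ± 0.16 in C57BL/6 (adjusted p = 0.371) and rose by 1.38 ± 0.17 in B-cell deficient mice (limma, adjusted p = 8.87e-09), less than each C1q gene. The mean of the 10 markers per array ran from 9.44 to 10.24 in C57BL/6 controls and 9.83 to 10.61 after MDI, and from 9.15 to 10.12 and 10.45 to 10.79 in B-cell deficient mice. In BALB/c mice it ran from 9.35 to 9.51 and from 10.02 to 10.30. Of 7 alveolar macrophage markers 1, 0 and 4 rose in these strains in the order BALB/c, C57BL/6, B-cell deficient, 1 (Cidec) fell in C57BL/6 mice by 1.14 ± 0.35 (limma, adjusted p = 0.0209), and of 5 eosinophil markers 0, 4 and 5 rose. Of 4 fibroblast markers 0, 3 and 3 rose, Col1a1 by 1.27 ± 0.25 in C57BL/6 and 1.12 ± 0.25 in B-cell deficient mice. Differing calls do not test a strain difference. The median MDI difference of the 10 interstitial markers was 0.68 in BALB/c and 0.25 in C57BL/6 mice. The differences in MDI effect were also tested. BALB/c minus C57BL/6 called 0 of these 10, 0 of 7 alveolar macrophage and 0 of 5 eosinophil markers, beside 0.0270% of probe sets. B-cell deficient minus C57BL/6 called 5, 2 and 1 higher, beside 9.27%. The part of the cells behind these markers in the C1q and C3ar1 results was not tested.

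Neutrophil markers were uneven beside C5ar1. After MDI in C57BL/6 mice Csf3r fell by 1.65 ± 0.40 (limma, adjusted p = 0.00284) and Cxcr2 fell by 1.15 ± 0.37 (adjusted p = 0.0264), Retnlg rose by 1.27 ± 0.40, and the other 4 of 7 measured markers were not called. In B-cell deficient mice, where C5ar1 also fell, Csf3r (0.44 ± 0.41) and Cxcr2 (0.38 ± 0.37) were not called. There 1 of the 7 was called higher and 0 lower, beside 16.2% of all probe sets called higher and 20.7% lower. The mean of the 7 markers ran from 9.87 to 12.72 in C57BL/6 controls and from 8.40 to 12.41 after MDI, and from 7.28 to 9.31 and 8.55 to 9.58 in B-cell deficient mice. Their part in the fall of C5ar1 was not tested.

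Within groups, the arrays with high C1q were also high in C3ar1. After the mean of each group was subtracted, the 49 arrays gave r = 0.84 for C1qa and C1qc (Spearman's rho 0.82), r = 0.72 for C1qb and C3ar1 (rho 0.73), and r = 0.64 for C1qb with C1qa (rho 0.66) and with C1qc (rho 0.62). C3ar1 gave r = 0.61 with C1qa (rho 0.60) and with C1qc (rho 0.61). For these 6 of the 21 pairs tested, adjusted permutation p-values (2-sided, 100000 permutations within groups) were at most 2.4e-04, and r without the 2 arrays farthest out stayed between 0.53 and 0.81. Within the sets the 2 closest pairs were C1qa with C1qc at 0.96 in 19 C57BL/6, 0.78 in 16 B-cell deficient, 0.65 in 8 crofelemer and 0.31 in 6 BALB/c arrays, and C1qb with C3ar1 at 0.75, 0.70, 0.62 and 0.78. C1qc and C3ar1, by contrast, stood at -0.34 in the 6 BALB/c arrays. In the 16 B-cell deficient arrays they stood at 0.87. There the narrow-spread controls 2, 5 and 6 were low in both genes, with deviations of -0.77 to -0.54 for C1qc and -1.08 to -0.55 for C3ar1. Narrow-spread control 1 lay closer to the mean, and controls 4, 7, 8 and 9 were high in both. The part of this split in the correlations was not tested.

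C5ar1 did not vary with them. Its r was -0.07 with C1qa, -0.02 with C1qb, 0.14 with C1qc and -0.08 with C3ar1, with adjusted permutation p-values between 0.508 and 0.928. Cfb gave r = 0.49 with C1qa and 0.50 with C1qc (adjusted permutation p = 0.00591 for each). It gave 0.40 with C3ar1 (adjusted permutation p = 0.0357) and 0.19 with C1qb (adjusted permutation p = 0.399). C4b gave r = 0.38 with C1qa and 0.37 with C1qc (adjusted permutation p = 0.0365 and 0.0451). With C1qb and C3ar1 it gave 0.14 and 0.15 (adjusted permutation p = 0.508 and 0.489). Subtracting the group means removes what all arrays of a group share. It does not remove differences inside a group, such as those between record blocks or between B-cell deficient controls of narrow and wider spread.

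**Figure D5:**
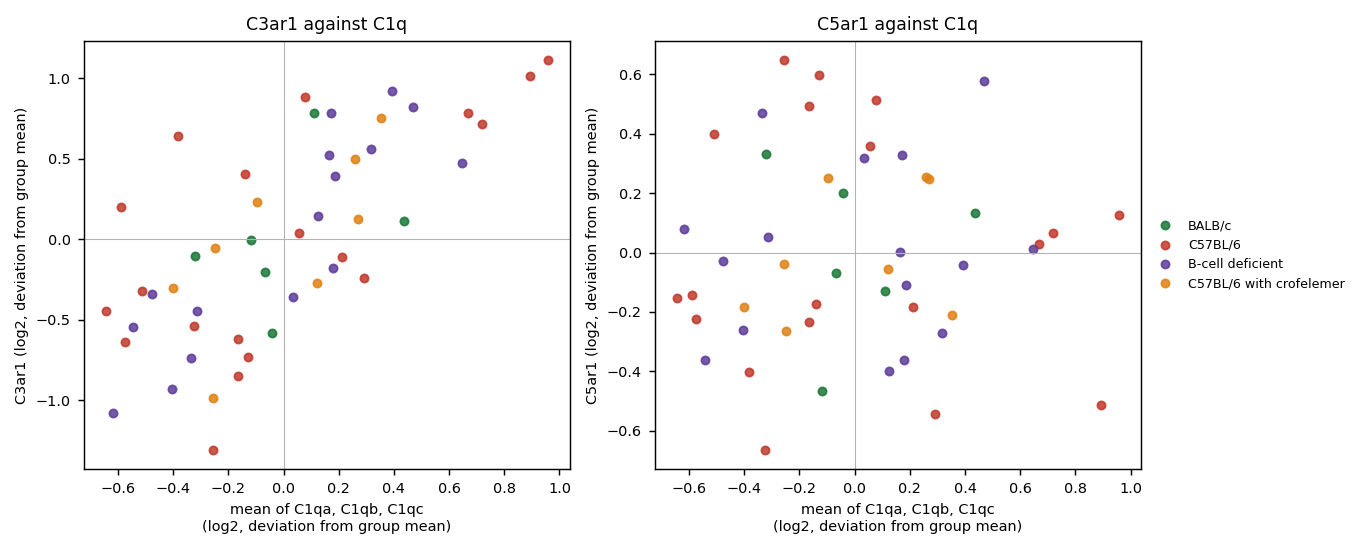
Deviation of each of the 49 arrays from its group mean in log2 units, for the mean of C1qa, C1qb and C1qc (horizontal axes) against C3ar1 (left, vertical axis) and C5ar1 (right, vertical axis), coloured by set. C3ar1 rises with C1q over the arrays, and C5ar1 shows no trend.

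By the same deviations, the genes most like the mean of the C1q genes among 19498 compared over the 49 arrays were Ccl9 (r = 0.88), Lgmn (0.86), Ctsz (0.82), Col1a1 (0.81) and Man2b1 (0.81). Ccl9 encodes a chemokine, Lgmn, Ctsz and Man2b1 encode lysosomal enzymes, and Col1a1 encodes a chain of type I collagen. C3ar1 was most like Tbxas1, the thromboxane synthase gene (r = 0.83), Ccr3, the eotaxin receptor gene (0.80), and Cyth4 (0.79). C4b was most like C4a (0.74), its near-identical neighbour, followed by Hsd3b7 (0.67) and Podn (0.66). C5ar1 was most like Wars (0.71), Slc44a2 (0.68) and Aph1a (0.67), and Cfb was most like Mrpl20 (0.73), Cox5a (0.70) and Tmem258 (0.69). These are descriptions, with no test.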

How the data were processed

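The authors deposited 1 table of 51 arrays with a log2 signal, at 2 decimals, for each of 22206 probe sets. Per the submitters' processing notes the tool was Transcriptome Analysis Console; its version and the normalization were not given in the sources used here. That the logarithm has base 2 was read from the highest value, 20.91. Per the labels, 250 ng of total RNA were labelled with biotin. Nothing was rescaled. The members and gene lists were chosen with earlier results of these data known. Symbols came from the array's annotation (19572 probe sets with 1 symbol), and positions from RefSeq on GRCm38.p6.

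One model of 8 group means was fitted with limma 3.58.1 in R 4.3.3 (41 residual degrees of freedom, intensity trend, 2-sided tests), with p-values adjusted by Benjamini-Hochberg over all 22206 probe sets and a threshold of 0.05. Values are means ± SD or differences ± SE. The 9 comparisons share groups. Of the 51 arrays, 2 whose title contradicts their other labels on crofelemer were left out. No arrays were identical (correlations 0.9398 to 0.9960), and the number of arrays limits the precision. In 1 comparison, crofelemer against none in MDI arrays, all 3 pairs of equal replicate number deviated together (r 0.11 to 0.17). This was seen in the data and not in the labels, and the main fit used no pairs. Replicate number entered only as a block in an alternative fit, run for every comparison. The named genes were the members, up to 6 other complement genes per comparison with the smallest adjusted p among those called, a few more chosen by role, and the genes most like the members. Others are named for a marker list. The procedure was tested on simulated data. Figures used matplotlib 3.10.9 in Python 3.11.15.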

Additional observations from a re-analysis of the deposited data

Results flagged for a closer look

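The MDI effect was larger in B-cell deficient than in C57BL/6 mice, by the test of the difference itself, for C1qa (0.99), C1qc (1.26), C3ar1 (1.29) and C4b (0.80), all in log2 units. It was smaller with crofelemer than without for C1qb (-1.43) and C3ar1 (-2.20). The report gives their errors and where these calls are lost.

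The 2 arrays left out for contradicting labels carried 5 and 6 of the 7 members at levels above the highest C57BL/6 control. The array titled as MDI with crofelemer, whose other labels name no crofelemer, had C1qa at 10.97, C1qb at 11.01, C1qc at 9.67, C3ar1 at 11.10 and Cfb at 7.46, while the highest C57BL/6 controls were 9.94, 10.00, 8.82, 9.14 and 6.95. The array titled as MDI alone, whose other labels name crofelemer, had C1qa at 11.81, C1qb at 11.82, C1qc at 10.68, C3ar1 at 12.13, C4b at 12.01 and Cfb at 8.99, the highest C57BL/6 control for C4b being 11.88. C4b on the first array (11.25) lay within the C57BL/6 control range, as did its C5ar1 (8.71), while C5ar1 on the second (7.84) lay below the lowest C57BL/6 control (8.05). On the labelled C57BL/6 MDI arrays C5ar1 ran from 8.57 to 9.03 with crofelemer and from 7.15 to 8.34 without it. Their array means were 7.45 for the first and 7.50 for the second of the 2 arrays left out. Those of the labelled C57BL/6 arrays were 7.43 to 7.48 with crofelemer and 7.48 to 7.51 without it. Which label is right was not tested. The groups of 5 to 9 arrays, 4 in number, were tested for a single far value in each of the 7 genes, and none of these 28 tests found one. The groups of 3 or 13 arrays were not tested.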

How the results depend on the processing

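The members' calls were stable where MDI was compared with control: 6 were called in C57BL/6 mice and 7 in B-cell deficient mice under each alternative and each array left out, 0 within crofelemer and 5 for crofelemer in controls. In BALB/c mice leaving out 1 array gave 2 to 4, and array weights (1.03), fitting BALB/c alone and the replicate block (both 1.12) brought Cfb past the threshold. For crofelemer in MDI arrays 2 were called with only the groups compared, with the record block as a term and within record block 1, 1 with the replicate block, and 1 to 4 with 1 array left out. For B-cell deficiency the number was 0 without the 4 narrow-spread controls, an alternative chosen after seeing the data, and 2 to 5 with 1 array left out. For the crofelemer difference it was 0 with no intensity trend, array weights, only the groups compared, the record block term, within record block 1 and with the replicate block, and 0 to 2 with 1 array left out. The cause was not tested.

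Values that changed sign belonged to results that were not called. Quantile normalization gave C4b 0.04 for crofelemer in MDI arrays, C3ar1 -0.09 for BALB/c minus C57BL/6, and C5ar1 -0.05 and Cfb 0.01 for B-cell deficient minus C57BL/6. The record block term gave C4b -0.04 within crofelemer (the same within block 1) and Cfb 0.03 for B-cell deficiency, and block 1 alone gave C5ar1 -0.08 for crofelemer in controls. The replicate block gave C5ar1 0.01 and C4b -0.0033 within crofelemer, C5ar1 -0.01 for crofelemer in controls, Cfb -0.28 in MDI arrays and C4b -0.20 for BALB/c minus C57BL/6. With 1 array left out, C3ar1 ran from -0.22 to 0.47 for BALB/c minus C57BL/6 and from -0.26 to 0.61 within crofelemer, C5ar1 from -0.18 to 0.05 and C4b from -0.06 to 0.20 within crofelemer, C5ar1 from -0.01 to 0.22 for crofelemer in controls, and Cfb from -0.14 to 0.03 for B-cell deficiency.

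Counts over all probe sets moved more, from 67 to between 55 and 283 in BALB/c, from 3225 to between 930 and 3776 in C57BL/6, from 8205 to between 3780 and 8988 in B-cell deficient mice, from 12 to between 4 and 29 within crofelemer, and from 7232 to between 2148 and 8199 for crofelemer in MDI arrays. They ran from 2 to 183 (6) for BALB/c minus C57BL/6, 719 to 5173 (4502) for B-cell deficiency and 4 to 122 (94) for the crofelemer difference. Outside crofelemer in MDI arrays, pairs of equal replicate number did not all deviate together (lowest r from -0.26 to -0.12 over the comparisons checked). For MDI in C57BL/6 mice 4 of 6 such pairs had an r over 0.1. With 1 array left out the counts ran from 29 to 67 in BALB/c, 1 to 13 within crofelemer, 3 to 10 for BALB/c minus C57BL/6 and 20 to 125 for the crofelemer difference, and stayed within 1.5 times in the other comparisons. A fit within record blocks was not run for BALB/c, which lies in 1 block, nor for the B-cell deficient difference.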
